A study of Mus musculus with 9 samples.

Results

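The Hox cluster genes are the 39 mouse homeobox genes of the Hoxa, Hoxb, Hoxc and Hoxd clusters, taken as the genes whose symbol is Hox, a cluster letter and a number, out of 55488 genes listed in each table. They were measured as TPM, a transcript level scaled for transcript length and library size, in RNA-seq libraries made from 100 sorted fetal liver cells each, at embryonic day 14.5, from C57BL/6 mice. The 3 Evi1 HSC libraries came from Tie2-Cre::ROSA-Evi1 embryos and a gate for lineage-negative (Lin-) cells that were c-Kit+, Sca-1+, CD150+ and CD48- and also GFP+. The 3 WT HSC libraries came from ROSA-Evi1 embryos, which carry the same ROSA allele without the Cre, and the same gate without the GFP requirement. The 3 WT KL libraries came from ROSA-Evi1 embryos and a gate for Lin- cells that were c-Kit+ and Sca-1-, which holds committed progenitors and no cells with the stem cell marker Sca-1. Tie2 is active in endothelium and in blood cells that descend from it, so the transgene can act in both, and Evi1 is a product of the Mecom gene.

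Hox proteins are transcription factors that give regions of the body their identity along the head to tail axis. Within a cluster the genes lie in the order in which they are used along that axis, from paralog group 1 (anterior) to paralog group 13 (posterior), and in general the anterior genes open first. In blood, Hox genes of the Hoxa and Hoxb clusters are active in stem cells and are shut off as cells mature. The proteins bind DNA together with the TALE homeodomain partners PBX and MEIS. MLL-family methyltransferases keep Hox genes open and polycomb complexes keep them closed.

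All 39 gene identifiers were found in GENCODE vM21 (GRCm38), where Hoxa lies on chromosome 6, and Hoxb spans chr11:96194316-96368256, Hoxc chr15:102921103-103036852 and Hoxd chr2:74668310-74765142. Hoxa lies on the minus strand and the other clusters lie on the plus strand. The Hoxa cluster has 11 members, Hoxb has 10, and Hoxc and Hoxd have 9 each.

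One library of each ROSA-Evi1 group went against its label. Mecom, which encodes EVI1, had 209, 176 and 210 TPM in Evi1 HSC libraries, 161, 114 and 0.0167 TPM under the WT HSC label and 90.8, 0.0107 and 0.325 TPM under the WT KL label, in the order of replicates 1, 2 and 3. The GFP row was at 23.4 to 27.3 TPM in Evi1 HSC libraries and at 0 to 0.38 TPM in the other 6. The summed level of 10 stem cell markers was 746 to 852 TPM in Evi1 HSC libraries, 725 and 759 TPM in WT HSC replicates 1 and 2, and 10.5 TPM for the library labelled WT HSC replicate 3. In the libraries labelled WT KL it was 709 TPM in replicate 1 and 12.0 and 13.8 TPM in replicates 2 and 3. The summed level of 7 granulocyte markers ran the other way, reaching 1140 TPM for the library labelled WT HSC replicate 3 but 38.5 TPM for the library labelled WT KL replicate 1, against 2060 and 607 TPM in WT KL replicates 2 and 3. Ly6a, which encodes Sca-1 and so is part of the gate, was listed at 0 for the library labelled WT HSC replicate 3 but at 19.7 TPM for the library labelled WT KL replicate 1. Comparisons of Hox members are therefore given with all 9 libraries as labelled and with 7 libraries, leaving out these 2. No library was moved to another group.

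Across the 9 libraries, 28 of the 39 members had a value above 0 in at least 1 library and 16 reached 1 TPM. The summed level of the 39 genes was 175, 133 and 154 TPM in Evi1 HSC libraries, 138, 147 and 0.819 TPM under the WT HSC label and 149, 1.02 and 0.63 TPM under the WT KL label. The library labelled WT HSC replicate 3 thus stood beside WT KL replicates 2 and 3, and the library labelled WT KL replicate 1 stood among the HSC libraries. Between 19 and 24 members were above 0 in each library with a high sum, and 6 were above 0 in each of the 3 low ones. In bulk samples such as these, fewer cells that express a gene and less RNA per cell cannot be told apart.

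Most Hox RNA came from the Hoxa cluster. Hoxa members made up 83.2% to 88.6% of the summed Hox TPM in Evi1 HSC libraries, 90.4% and 88.0% in WT HSC replicates 1 and 2, and 89.8% in the library labelled WT KL replicate 1. The Hoxa sum averaged 133 ± 18.5 TPM in Evi1 HSC libraries (SD, n = 3), 127 ± 3.26 TPM in WT HSC replicates 1 and 2 (SD, n = 2) and 0.767 ± 0.245 TPM in WT KL replicates 2 and 3 (SD, n = 2). The Hoxb sum averaged 19.6 ± 5.06 TPM in Evi1 HSC libraries (SD, n = 3), 14.2 ± 2.37 TPM in WT HSC replicates 1 and 2 (SD, n = 2) and 0.058 ± 0.031 TPM in WT KL replicates 2 and 3 (SD, n = 2). Taken as labelled, with 3 libraries a group, the Hoxa sum was 133 ± 18.5 TPM in Evi1 HSC, 85.0 ± 72.9 TPM in WT HSC and 45.1 ± 76.7 TPM in WT KL (SD), so that the SD of WT KL was larger than its mean. Hoxc members summed to at most 1.36 TPM and Hoxd members to at most 0.762 TPM in any library. In each of the 6 libraries with a high sum, Hoxa contributed most and Hoxb came next, with Hoxc and Hoxd both far lower.

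**Figure D1:**
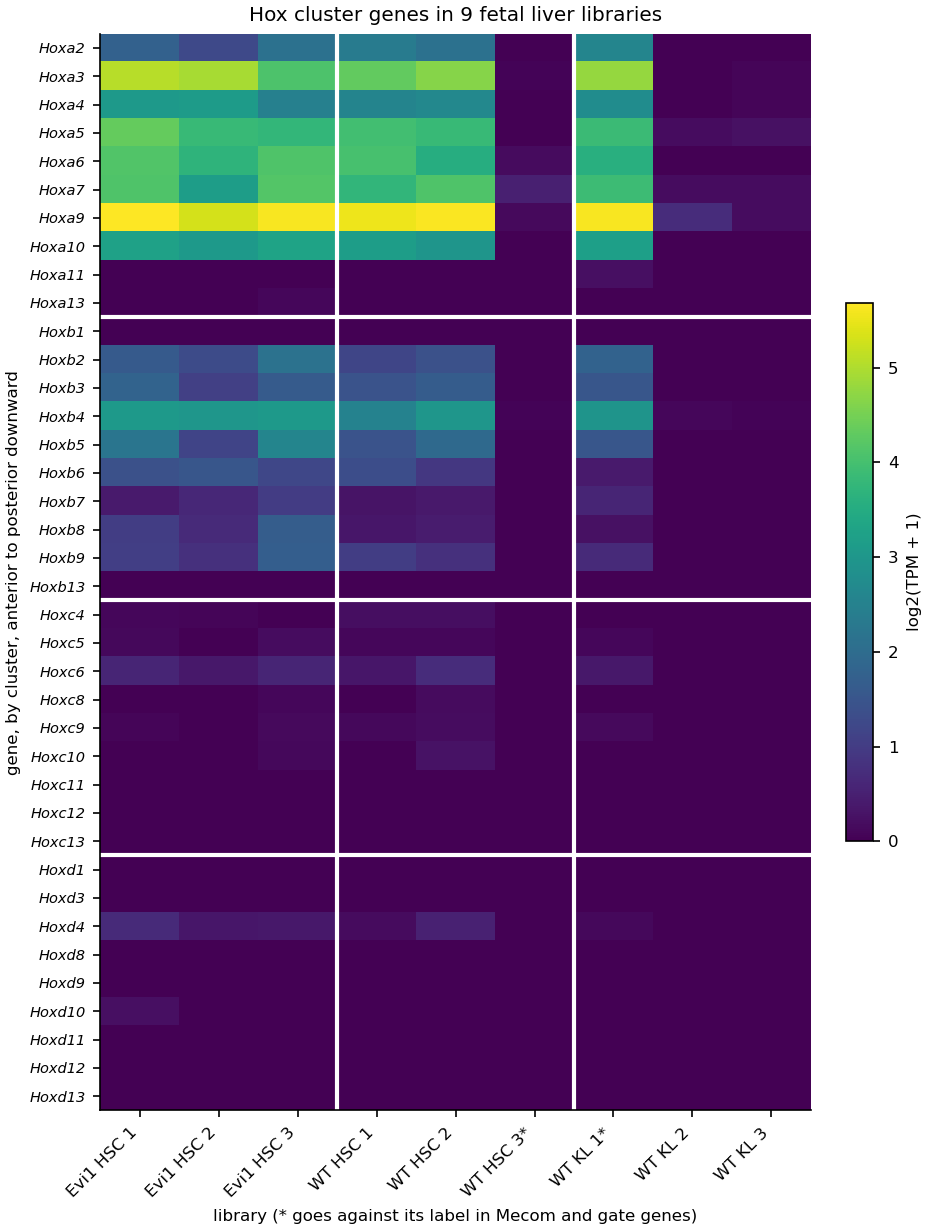
Level of the Hox cluster genes reported here, as log2(TPM + 1), with genes in rows by cluster and paralog group and the 9 libraries in columns, Evi1 HSC left of WT HSC and WT KL; the asterisks mark the library labelled WT HSC replicate 3 and the library labelled WT KL replicate 1. The bright rows are Hoxa2 to Hoxa10 and, more weakly, Hoxb2 to Hoxb9, and the 3 dark columns are WT KL replicates 2 and 3 and the library labelled WT HSC replicate 3.

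At the anterior side of Hoxa, the level was lower at Hoxa2 than at Hoxa3. Hoxa2, which patterns the hindbrain and the second pharyngeal arch, had 2.42, 1.40 and 3.36 TPM in Evi1 HSC libraries, 4.16, 3.37 and 0 TPM under the WT HSC label and 5.05, 0 and 0 TPM under the WT KL label. Hoxa2 was lower in all 3 Evi1 HSC libraries than in WT HSC replicates 1 and 2, with the closest pair at 3.36 and 3.37 TPM. Hoxa3, which is needed for the thymus and parathyroid, had 32.7, 29.5 and 16.1 TPM in Evi1 HSC libraries, 19.1, 24.2 and 0.0336 TPM under the WT HSC label and 26.6, 0.00399 and 0.0579 TPM under the WT KL label. The Evi1 HSC values of Hoxa3 lay on both sides of those of WT HSC replicates 1 and 2. Exons of other genes, among them the opposite-strand Hoxaas2 and Hoxaas3 and the same-strand Gm28308, cover 27.1% of the exonic bases of Hoxa3. The use of strand in counting is not stated in the labels and would not separate Gm28308, so the level of Hoxa3 is uncertain. Hoxa4 had 7.30, 7.64 and 4.54 TPM in Evi1 HSC libraries, 4.90, 5.30 and 0 TPM under the WT HSC label and 5.83, 0 and 0.0558 TPM under the WT KL label. Exons of other genes cover 15% of the exonic bases of Hoxa2 (same-strand Gm28308) and 16.0% of those of Hoxa4 (opposite-strand Gm29430).

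The next Hoxa genes, Hoxa5 to Hoxa9, included the most abundant member, Hoxa9. Hoxa5, with no exon shared with another gene, had 19.2, 13.3 and 12.6 TPM in Evi1 HSC libraries, 14.6, 13.2 and 0 TPM under the WT HSC label and 13.7, 0.141 and 0.197 TPM under the WT KL label. Hoxa6 had 16.7, 12.0 and 16.4 TPM in Evi1 HSC libraries, 15.4, 10.7 and 0.125 TPM under the WT HSC label and 11, 0 and 0 TPM under the WT KL label. For both genes the Evi1 HSC range overlapped that of WT HSC replicates 1 and 2, and WT KL replicates 2 and 3 were lower than all of these. Hoxa7, which shares 20.4% of its exonic bases with the opposite-strand Hoxaas3, had 16.3, 7.93 and 17.0 TPM in Evi1 HSC libraries, 12.4, 16.3 and 0.416 TPM under the WT HSC label and 14.0, 0.136 and 0.145 TPM under the WT KL label. Hoxa9, which sustains repopulation by stem cells and drives acute myeloid leukaemia together with Meis1, had 50.4, 38.6 and 48.6 TPM in Evi1 HSC libraries, 45.7, 49.3 and 0.106 TPM under the WT HSC label and 48.8, 0.659 and 0.137 TPM under the WT KL label. It was the highest Hox gene in all 6 libraries with a high sum and made up 32.8% to 38.0% of the Hoxa sum in Evi1 HSC libraries, against 36.6% and 38.1% in WT HSC replicates 1 and 2. Among the genes at 1 TPM or more in the same library, Hoxa9 stood at percentile 87.6 to 91.1 in Evi1 HSC libraries and at percentile 90.1 and 91.6 in WT HSC replicates 1 and 2.

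On the posterior side the level ended between Hoxa10 and Hoxa11. Hoxa10, whose forced expression expands blood progenitors, had 8.49, 7.26 and 8.89 TPM in Evi1 HSC libraries, 7.97, 6.85 and 0 TPM under the WT HSC label and 8.24, 0 and 0 TPM under the WT KL label. Hoxa11, which acts in limb, kidney and uterus, was at 0 in 8 libraries and at 0.183 TPM for the library labelled WT KL replicate 1. Hoxa13, which acts in digits and the genital tract, was at 0 in 8 libraries and at 0.0684 TPM in Evi1 HSC replicate 3. The annotated starts of Hoxa10, Hoxa11 and Hoxa13 lie 9.8, 14.7 and 29.8 kb from the Hoxa9 start, and Evx1, the next protein-coding gene beyond Hoxa13, was at 0 in all 9 libraries. The 250 bases before a start of Hoxa10 (RefSeq, GRCm38.p6, minus strand, chr6:52234940-52235189, the one of its 2 starts nearer to Hoxa9) and of Hoxa11 (minus strand, chr6:52245811-52246060) are shown because they lie on either side of the step in level. The capitals mark CG dinucleotides, of which this Hoxa10 window has 20 and the Hoxa11 window has 13. The window of the other Hoxa10 start (chr6:52240855-52241104) has 7, fewer than Hoxa11, and that of Hoxa9 has 3.
Hoxa10: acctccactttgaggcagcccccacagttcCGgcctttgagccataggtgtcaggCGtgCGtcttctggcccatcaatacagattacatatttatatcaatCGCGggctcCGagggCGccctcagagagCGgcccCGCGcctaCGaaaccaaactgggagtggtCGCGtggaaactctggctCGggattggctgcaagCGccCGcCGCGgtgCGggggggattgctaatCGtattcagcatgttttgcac
Hoxa11: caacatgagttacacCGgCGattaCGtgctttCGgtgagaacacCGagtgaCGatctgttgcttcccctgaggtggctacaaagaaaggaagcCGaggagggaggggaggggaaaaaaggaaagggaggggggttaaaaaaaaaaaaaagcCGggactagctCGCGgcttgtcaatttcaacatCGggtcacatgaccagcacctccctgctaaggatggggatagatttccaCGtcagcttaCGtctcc

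Promoter letters were compared over the 24 RefSeq windows of 250 bases that matched 22 of the 39 members. The Hox windows had a median of 12.5 CG dinucleotides, against 6 over all 32851 windows. At least 13 CG dinucleotides were present in 31.5% of all windows and at least 20 in 17.9%. The 9 windows of members that passed the filter on low values held 3 to 28 CG dinucleotides (median 14), and the 15 windows of members that did not pass held 2 to 35 (median 12), so the ranges overlapped. The motif TGATTNAT, bound by HOX with PBX, was present on either strand in 2 of the 24 Hox windows and in 2.82% of all windows. TGACAG, bound by MEIS, was in 2 of the 24 and in 15.9% of all windows, and CCAAT, bound by NF-Y, was in 14 of the 24 and in 33.8% of all windows. These matches describe the letters only.

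**Figure D2:**
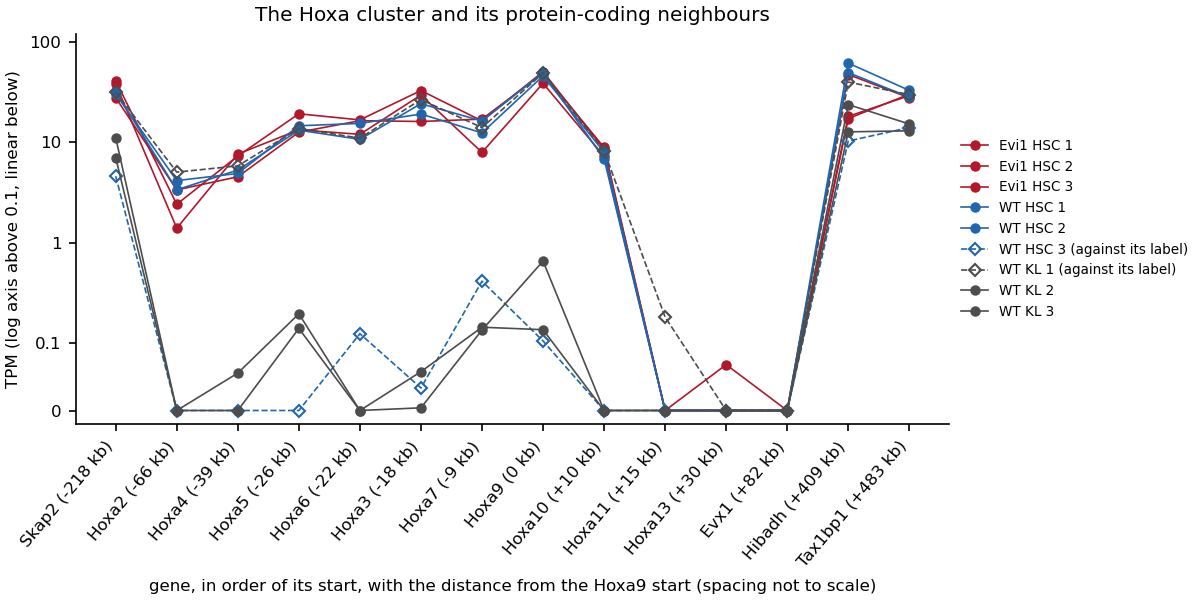
TPM (log axis above 0.1, linear below) of the Hoxa members reported here and protein-coding neighbours in each of the 9 libraries, in order of annotated start, with the distance from the Hoxa9 start in brackets; lines join the values of 1 library, and dashed lines with open symbols are the library labelled WT HSC replicate 3 and the library labelled WT KL replicate 1. The level peaks at Hoxa9, at 38.6 to 50.4 TPM in Evi1 HSC libraries, and is at or near 0 from Hoxa11 to Evx1; the outermost annotated start of Hoxa3 lies between those of Hoxa6 and Hoxa7.

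The Hoxb cluster was expressed at lower levels and peaked at Hoxb4. Hoxb4, whose forced expression expands stem cells, had 7.41, 6.92 and 7.28 TPM in Evi1 HSC libraries, 4.73, 6.93 and 0.0424 TPM under the WT HSC label and 6.71, 0.0693 and 0.0361 TPM under the WT KL label. Without the library labelled WT HSC replicate 3 the Evi1 HSC and WT HSC ranges met at 6.92 and 6.93 TPM. On the anterior side, Hoxb1, a hindbrain gene, was at 0 in all 9 libraries. Hoxb2 had 2.03, 1.47 and 3.40 TPM in Evi1 HSC libraries, 1.27, 1.64 and 0 TPM under the WT HSC label and 2.47, 0 and 0 TPM under the WT KL label. Hoxb3 had 2.52, 1.1 and 2.10 TPM in Evi1 HSC libraries, 1.75, 2.17 and 0 TPM under the WT HSC label and 1.86, 0.0106 and 0 TPM under the WT KL label. Both levels are uncertain, because the opposite-strand Hoxb3os covers 27.3% of the exonic bases of Hoxb2 and 52.9% of those of Hoxb3.

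On the posterior side of Hoxb4 the levels were also lower than at Hoxb4. Hoxb5, which marks long-term stem cells in mouse bone marrow, had 3.63, 1.25 and 5.02 TPM in Evi1 HSC libraries, 1.72, 2.84 and 0 TPM under the WT HSC label and 1.89, 0 and 0 TPM under the WT KL label. Hoxb6 had 1.65, 1.86 and 1.31 TPM in Evi1 HSC libraries, 1.52, 0.898 and 0 TPM under the WT HSC label and 0.337, 0 and 0 TPM under the WT KL label. Both genes varied more than Hoxb4, relative to their means, among Evi1 HSC libraries, with Hoxb5 lowest in replicate 2 and Hoxb6 lowest in replicate 3. Hoxb7 had 0.332, 0.558 and 1.02 TPM in Evi1 HSC libraries, 0.225, 0.303 and 0 TPM under the WT HSC label and 0.506, 0 and 0 TPM under the WT KL label. Hoxb8, used to immortalise myeloid progenitors in culture, had 1.05, 0.593 and 2.20 TPM in Evi1 HSC libraries, 0.278, 0.358 and 0 TPM under the WT HSC label and 0.191, 0 and 0 TPM under the WT KL label. For Hoxb7 and Hoxb8 every Evi1 HSC library was above WT HSC replicates 1 and 2, a pattern that 11.8% of all tested genes showed, at levels too low for either gene to pass the filter. Hoxb9 had 1.07, 0.733 and 2.27 TPM in Evi1 HSC libraries, 1.03, 0.729 and 0 TPM under the WT HSC label and 0.608, 0 and 0 TPM under the WT KL label. Hoxb13, a prostate gene at the posterior end, was at 0 in all 9 libraries.

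Hoxc and Hoxd members were at or near 0. The highest were Hoxc6, at 0.292 to 0.5 TPM in Evi1 HSC libraries against 0.279 and 0.660 TPM in WT HSC replicates 1 and 2, and Hoxd4, at 0.277 to 0.594 TPM in Evi1 HSC libraries against 0.129 and 0.438 TPM in WT HSC replicates 1 and 2. Exons of other genes, including Hoxd3, cover 52.3% of Hoxd4, so its value is uncertain. The members Hoxc11, Hoxc12, Hoxc13, Hoxd1, Hoxd8, Hoxd9, Hoxd11, Hoxd12 and Hoxd13 were at 0 in all 9 libraries, and no Hoxc or Hoxd member was above 0 in WT KL replicates 2 and 3 or the library labelled WT HSC replicate 3. Hoxc4, Hoxc5, Hoxc8, Hoxc9, Hoxc10, Hoxd3 and Hoxd10 had highest values between 0.00404 TPM (Hoxd3) and 0.214 TPM (Hoxc10). The number of reads behind each library is not known from TPM, so no limit can be put on a value of 0.

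**Figure D3:**
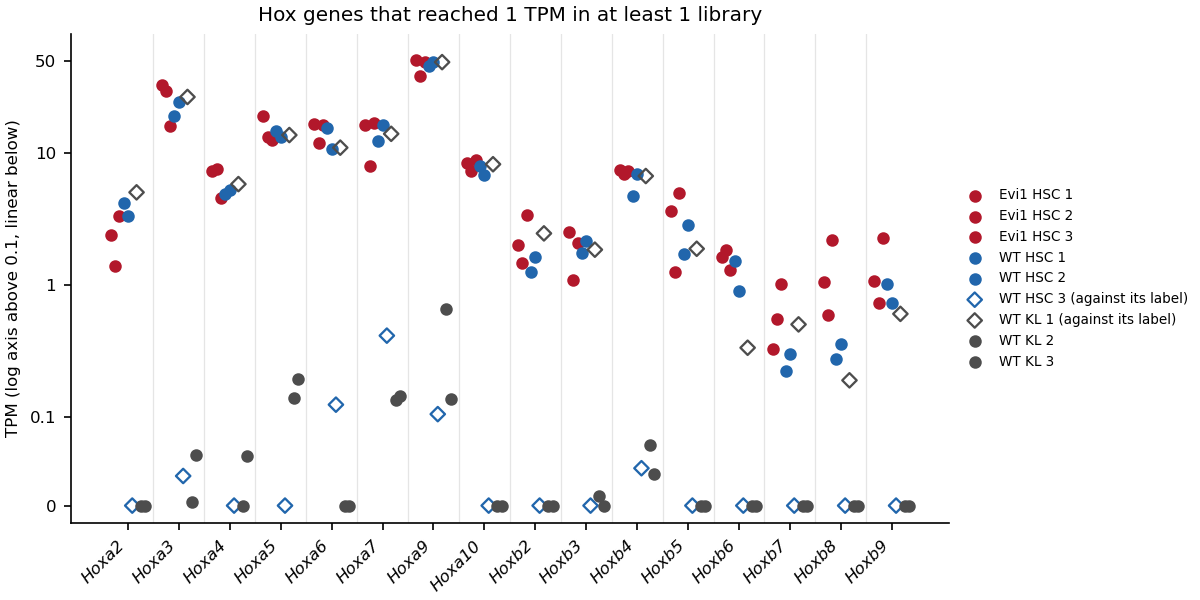
TPM (log axis above 0.1, linear below) of the 16 Hox genes that reached 1 TPM in at least 1 library, 1 point per library, with Evi1 HSC left of WT HSC and WT KL and open diamonds for the library labelled WT HSC replicate 3 and the library labelled WT KL replicate 1. Hoxa9 is at 38.6 to 50.4 TPM in Evi1 HSC libraries, and the blue diamonds lie with WT KL replicates 2 and 3 at the bottom, while the grey diamonds lie with the HSC libraries.

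In the 5 libraries of the 2 HSC groups without the library labelled WT HSC replicate 3, the median levels were ordered Hoxa9 (48.6 TPM), Hoxa3 (24.2 TPM), Hoxa7 (16.3 TPM), Hoxa6 (15.4 TPM), Hoxa5 (13.3 TPM), Hoxa10 (7.97 TPM), Hoxb4 (6.93 TPM) and Hoxa4 (5.30 TPM). The range of Hoxa9 lay above that of Hoxa3, the range of Hoxa5 above that of Hoxa10, and the range of Hoxa4 above that of Hoxa2. The other neighbours in this order overlapped in range. Hoxa2 (3.36 TPM), Hoxb5 (2.84 TPM), Hoxb3 (2.10 TPM), Hoxb2 (1.64 TPM), Hoxb6 (1.52 TPM) and Hoxb9 (1.03 TPM) followed, each overlapping the next. Position along the cluster did not order the levels in a single direction. Hoxa peaked at Hoxa9 and Hoxb at Hoxb4, and in both the most anterior and most posterior members described were lower.

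The Evi1 HSC and WT HSC groups were compared for Hox expression. These groups differ in the active transgene, in Tie2-Cre and in the GFP requirement of the gate, and the effects of these cannot be told apart. Of the 39 members, 14 reached 1 TPM in at least 3 of the 9 libraries and were tested among 19461 genes: Hoxa2 to Hoxa7, Hoxa9, Hoxa10, Hoxb2 to Hoxb6 and Hoxb9. The test was limma on log2(TPM + 1) with Benjamini-Hochberg adjustment over all tested genes, with calls made where the adjusted p was under 0.05. The labels do not say that libraries came from separate embryos or litters, so the p-values measure the spread between these libraries, which may be technical. Differences on the log2(TPM + 1) scale understate the change of genes at low level.

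With 7 libraries, none of the 14 was called between Evi1 HSC and WT HSC, where 0.206% of all tested genes were, and none had an unadjusted p under 0.05, where 8.40% of all tested genes did. Hoxa9 averaged 45.8 ± 6.35 TPM in Evi1 HSC and 47.5 ± 2.55 TPM in WT HSC (SD, n = 3 and 2), a difference of -0.06 (SE 0.21, 95% interval -0.55 to 0.44, limma adjusted p = 0.97). Hoxb4 averaged 7.20 ± 0.258 TPM in Evi1 HSC and 5.83 ± 1.56 TPM in WT HSC (SD, n = 3 and 2), a difference of 0.28 (SE 0.20, interval -0.19 to 0.76, limma adjusted p = 0.77). The differences of the 14 ran from -0.53 at Hoxa2 to 0.39 at Hoxb2, with a median of 0.20 beside 0 over all tested genes, and 10 were positive and 4 negative. Hoxa2 was the member with the most negative difference and did not pass the test (SE 0.28, interval -1.19 to 0.14, limma adjusted p = 0.69). It was also the only tested member whose Evi1 HSC and WT HSC values did not overlap, a pattern that 12.3% of all tested genes showed in that direction. The 95% intervals, which are not adjusted for the number of genes, extended 0.42 to 0.99 to either side of the difference. Calls needed an adjusted p, so changes of this size or somewhat larger could also go uncalled with these libraries.

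Taken as labelled, with all 9 libraries, again 0 of the 14 members were called between Evi1 HSC and WT HSC (0.00514% of all tested genes) and 0 had an unadjusted p under 0.05 (4.66% of all tested genes). All 14 differences were then positive, from 0.22 to 1.76, with limma adjusted p of 0.79 to 0.93 and intervals that extended 0.79 to 3.95 to either side. Without the library labelled WT HSC replicate 3, the differences were negative for Hoxa2 (-0.53), Hoxa7 (-0.12), Hoxa9 (-0.06) and Hoxb3 (-0.06). When genes of any level were fitted with 7 libraries (35537 genes), Hoxb8 differed by 0.73 (SE 0.30, limma adjusted p = 0.67) and Hoxb7 by 0.35 (SE 0.18, limma adjusted p = 0.73) between Evi1 HSC and WT HSC, and neither was called.

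**Figure D4:**
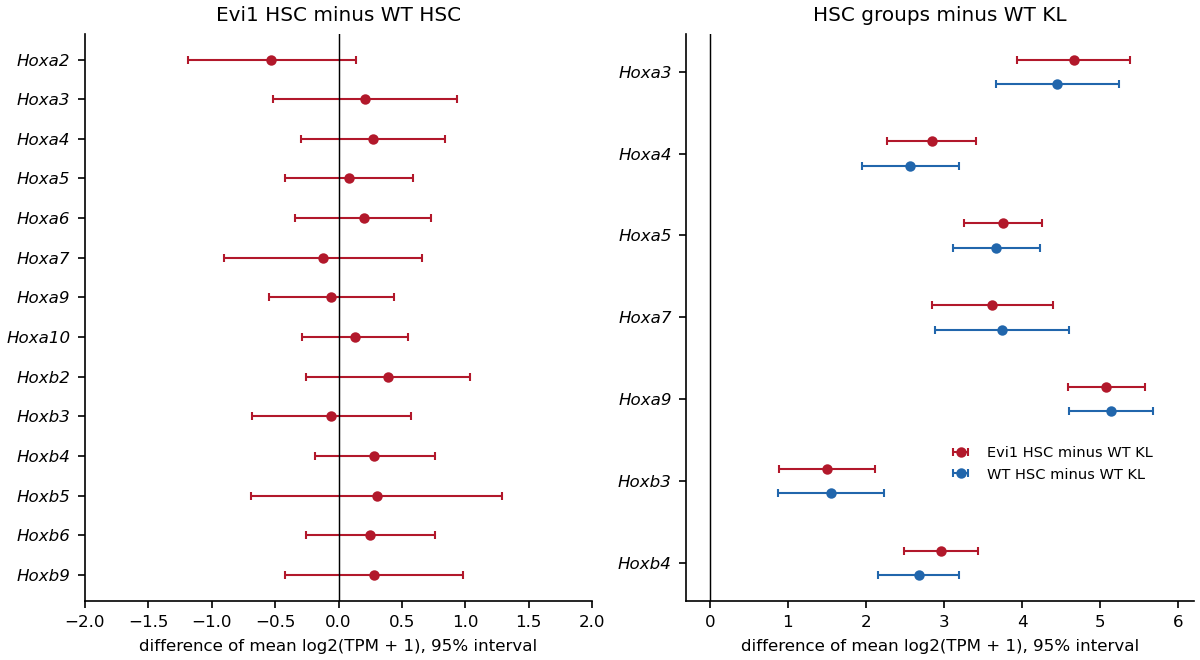
Differences of mean log2(TPM + 1) with 95% intervals from limma over 7 libraries: left, Evi1 HSC minus WT HSC for the 14 tested members; right, Evi1 HSC minus WT KL (red, upper) and WT HSC minus WT KL (blue, lower) for the 7 tested members above 0 in at least 1 of WT KL replicates 2 and 3. Every interval on the left includes 0, and those on the right lie above 0.

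Sorted HSC were compared with WT KL to place Hox expression between the stem cell gate and the progenitor gate. Both comparisons share the same WT KL libraries, so they are not independent of each other. All 14 tested members were below 1 TPM in WT KL replicates 2 and 3. They passed the filter only through the libraries in which they were high, so being higher in HSC was largely set by the filter. Their counts describe these 14 and not the other 25, and the shares of all tested genes are not a like measure. Without the filter, with 7 libraries, 16 of 28 members were higher in Evi1 HSC and 13 of 28 in WT HSC than in WT KL. Of the 35537 genes then fitted, 8468 and 6750 were called in either direction, which is not a like measure for counts of higher members. That fit still needed a value above 0 in some library. Members at 0 in WT KL replicates 2 and 3 thus again entered only through other libraries. With 7 libraries, 14 of the 14 were higher in Evi1 HSC than in WT KL, where 31.3% of all tested genes were higher, and 13 of the 14 were higher in WT HSC than in WT KL, where 26.7% were. The median difference of the 14 was 2.90 in Evi1 HSC minus WT KL, against 0.28 over all tested genes, and 2.62 in WT HSC minus WT KL, against 0.26 over all tested genes. Under quantile normalization the median over all tested genes was -0.05 in Evi1 HSC minus WT KL and -0.06 in WT HSC minus WT KL, and the same counts of 14 and 13 members were called.

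Hoxa9 averaged 45.8 ± 6.35 TPM in Evi1 HSC and 0.398 ± 0.369 TPM in WT KL (SD, n = 3 and 2), a difference of 5.08 (SE 0.21, limma adjusted p = 2e-05). In WT HSC it averaged 47.5 ± 2.55 TPM against the same WT KL libraries, a difference of 5.14 (SE 0.23, limma adjusted p = 4.5e-05). Each of the 5 HSC libraries in this comparison lay above both WT KL libraries. Hoxa3 differed by 4.66 (SE 0.31) in Evi1 HSC minus WT KL and by 4.45 (SE 0.33) in WT HSC minus WT KL. Hoxb4 differed by 2.96 (SE 0.20) in Evi1 HSC minus WT KL and by 2.68 (SE 0.22) in WT HSC minus WT KL, and Hoxa5, Hoxa7 and Hoxa4 differed by between 2.57 and 3.76 in both. On the log2(TPM + 1) scale Hoxb3 had the smallest difference of those above 0 in WT KL. It was 1.5 (SE 0.26) in Evi1 HSC minus WT KL and 1.55 (SE 0.29) in WT HSC minus WT KL. Hoxb3 averaged 1.91 TPM in Evi1 HSC and 0.00528 TPM in WT KL replicates 2 and 3. This scale understates changes at low level, so the order is not one of fold changes. Hoxa2, Hoxa6, Hoxa10, Hoxb2, Hoxb5, Hoxb6 and Hoxb9 were listed at 0 in WT KL replicates 2 and 3, so no fold change is given for them.

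Of these 7, all were called in Evi1 HSC against WT KL, with limma adjusted p from 4.9e-05 (Hoxa10) to 0.016 (Hoxb9). In WT HSC against WT KL, Hoxb9 was not called (limma adjusted p = 0.066) and the other 6 were, with Hoxb5 the weakest at 0.026. The Hoxb calls rested on few libraries. In Evi1 HSC against WT KL, Hoxb5 and Hoxb9 were not called without WT KL replicate 2 (limma adjusted p = 0.051 and 0.078) or replicate 3 (0.052 and 0.081). In WT HSC against WT KL, Hoxb2 was not called without WT HSC replicate 2 (0.078) or without WT KL replicate 2 (0.071) or 3 (0.073), and Hoxb6 was not called without WT KL replicate 2 (0.051) or 3 (0.053). Hoxb5 was not called in WT HSC against WT KL without WT HSC replicate 1 or 2 or WT KL replicate 2 or 3, at limma adjusted p of 0.054 to 0.13. Hoxb9 was called there without Evi1 HSC replicate 3 (0.023), which enters only through the shared estimate of spread.

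Taken as labelled, 0 of the 14 members were called in Evi1 HSC against WT KL (0.0103% of all tested genes) and 0 in WT HSC against WT KL (0.00514%). At an unadjusted p under 0.05 there were 4 members in Evi1 HSC against WT KL, beside 15.2% of all tested genes, and 0 in WT HSC against WT KL, beside 1.45%. The smallest limma adjusted p of the 14 was 0.31 in Evi1 HSC against WT KL and 0.96 in WT HSC against WT KL. The higher Hox level of HSC over WT KL was therefore called only when the library labelled WT HSC replicate 3 and the library labelled WT KL replicate 1 were left out.

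Other gene lists were compared with 7 libraries. Those 7 were chosen partly by stem cell and granulocyte marker levels, so counts against WT KL are not independent of that choice. With all 9 as labelled, 0 genes of the lists of cell type markers, partners, chromatin regulators, noncoding RNAs, neighbours and targets were called by limma in any of the 3 comparisons, and 0 to 6 genes of a list had an unadjusted p under 0.05.

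Markers of other cell types were summed in the same libraries, and some but not all of these sums separated the HSC groups from WT KL. Granulocyte markers summed to 32.2 to 37.6 TPM in Evi1 HSC libraries, 39.6 and 24.9 TPM in WT HSC replicates 1 and 2 and 2060 and 607 TPM in WT KL replicates 2 and 3; 3 or 4 of the 7 were at 0 in these HSC libraries, and 6 of the 7 were lower in both HSC groups than in WT KL, where 14.3% of all tested genes were lower in Evi1 HSC and 10.8% in WT HSC. Endothelial markers summed to 132 to 174 TPM in Evi1 HSC libraries, 91.1 and 159 TPM in WT HSC replicates 1 and 2 and 4.75 and 3.54 TPM in WT KL replicates 2 and 3. Of these markers, 7 of the 7 were higher in Evi1 HSC and 5 in WT HSC than in WT KL. The shares of all tested genes that were higher were 31.3% in Evi1 HSC and 26.7% in WT HSC. Erythroid markers summed to 699 to 1720 TPM in Evi1 HSC libraries, 661 and 806 TPM in WT HSC replicates 1 and 2 and 943 and 917 TPM in WT KL replicates 2 and 3. Of the 9 erythroid markers, 4 (Gata1, Klf1, Epor and Ermap) were lower in Evi1 HSC than in WT HSC, where 0.149% of all tested genes were. In each HSC group 5 were lower and 1 was higher than in WT KL, beside the shares of all tested genes given above. The higher one, Hbb-bt, differed by 2.42 in Evi1 HSC and 1.72 in WT HSC on the log2(TPM + 1) scale. With the replicate block 0 of all tested genes were called between Evi1 HSC and WT HSC by limma, so the 4 erythroid calls were lost as well. Macrophage markers summed to 7.71 to 14.4 TPM over the 9 libraries, and of the 2 of 7 that were tested 1 (Cd68) was higher and 1 lower in each HSC group than in WT KL. Hepatocyte markers (0 of 7 tested) summed to 23.3 TPM for the library labelled WT KL replicate 1 and to 0.658 to 7.89 TPM in the other 8, and stroma markers (0 of 8 tested) to 0.773 to 1.99 TPM. Megakaryocyte markers had 3 of 4 tested markers higher in Evi1 HSC than in WT KL, beside 31.3% of all tested genes. In WT HSC 2 of 4 were higher than in WT KL, beside 26.7%. The endothelial markers did not all move together. In WT HSC replicate 1 Tek had 37.7 TPM, but Stab2 had 0.175 TPM and Lyve1 0.393 TPM, against 8.26 and 8.58 TPM in replicate 2. Markers at or near 0 in a group passed the filter through the libraries in which they were high, so their counts partly follow from it. Granulocyte markers also helped to choose the libraries left out, so their counts against WT KL partly follow from that choice. Whether these RNAs came from cells of the named types was not tested, nor was any part of such cells in the Hox differences.

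The TALE partners, some of which were higher in HSC than in WT KL, were counted next. Meis1, the partner that raises the activity of Hoxa9, had 53.1, 59.7 and 64.2 TPM in Evi1 HSC libraries, 54.3, 64.2 and 1.86 TPM under the WT HSC label and 63.6, 1.51 and 1.61 TPM under the WT KL label. Meis1 differed by 4.55 (SE 0.15, limma adjusted p = 1.1e-05) in Evi1 HSC minus WT KL and by 4.55 (SE 0.16, limma adjusted p = 2.2e-05) in WT HSC minus WT KL. Of 10 TALE genes 7 were tested with 7 libraries, and 3 (Meis1, Pbx2 and Tgif1) were higher in each HSC group than in WT KL, while 0 were lower. A share of 31.3% of all tested genes was higher in Evi1 HSC and 26.7% in WT HSC, so the count of 3 among 7 is not far from that of other genes. Pbx3, another partner, had 7.92, 8.39 and 6.07 TPM in Evi1 HSC libraries, 9.63, 7.17 and 11.3 TPM under the WT HSC label and 15, 7.07 and 8.40 TPM under the WT KL label, so it was highest in the 2 libraries that went against their labels. None of the 7 was called between Evi1 HSC and WT HSC and 0 had an unadjusted p under 0.05 (limma), and Meis1 differed there by 0.00 (interval -0.35 to 0.34).

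Genes that regulate Hox chromatin were also counted with 7 libraries. Of 15 MLL and DOT1L complex genes, 4 were higher and 4 lower in Evi1 HSC than in WT KL (31.3% and 14.3% of all tested genes were), and 2 were higher and 3 lower in WT HSC than in WT KL (26.7% and 10.8%). Kmt2a, which encodes the methyltransferase MLL1, had 46.6 to 53.0 TPM in Evi1 HSC libraries, 44.3 and 48.8 TPM in WT HSC replicates 1 and 2 and 18.5 and 15.5 TPM in WT KL replicates 2 and 3, a difference of 1.48 (SE 0.13) in Evi1 HSC minus WT KL. Mllt3, a subunit that links MLL fusions to elongation, differed by 1.96 (SE 0.35) in Evi1 HSC minus WT KL and by 2.63 (SE 0.39) in WT HSC minus WT KL, and Dpy30, a core MLL subunit, by -1.11 (SE 0.15) and -0.74 (SE 0.17) in the same order. Of 20 polycomb genes and their opponents, 10 were higher in Evi1 HSC and 9 in WT HSC than in WT KL, beside the same 31.3% and 26.7% of all tested genes, with 0 lower in either, and Phc1, a subunit of polycomb complex PRC1, differed by 2.22 (SE 0.25) in Evi1 HSC minus WT KL. The 35 genes of these 2 lists had 0 limma calls between Evi1 HSC and WT HSC, with an unadjusted p under 0.05 for 2 of the 15 and 1 of the 20, near the 8.40% of all tested genes. Cdx1, Cdx2 and Cdx4, caudal factors that activate Hox genes in the early embryo, were at 0 in all 9 libraries.

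Noncoding RNAs that lie in or beside the clusters were counted with 7 libraries. Of the 19 on the list, 17 were found and 6 were tested, and 4 of these 6 (Hoxaas2, Hoxaas3, Hoxb5os and Gm53) were higher in each HSC group than in WT KL, where 31.3% of all tested genes were higher in Evi1 HSC and 26.7% in WT HSC. As with the Hox members, RNAs at or near 0 in WT KL passed the filter through the libraries in which they were high. Being higher in HSC was thus largely set by the filter, and these counts do not describe the other RNAs of the list. Hoxaas2, which runs opposite to Hoxa3, had 7.48, 5.12 and 10.7 TPM in Evi1 HSC libraries, 15.6, 12.3 and 0 TPM under the WT HSC label and 8.34, 0.0568 and 0.0591 TPM under the WT KL label. Its Evi1 HSC values were all below WT HSC replicates 1 and 2, and none of the 6 RNAs was called between these groups by limma, with 1 at an unadjusted p under 0.05. Hottip, Hotair, Halr1 and Hoxd3os1 were at 0 in all 9 libraries. The microRNA families miR-196 and miR-10 are encoded within the Hox clusters and target Hox transcripts. Their mature sequences (RefSeq, GRCm38.p6) are shown because members from different clusters share a seed, bases 2 to 8, which the capitals mark.
mmu-miR-196b-5p (Hoxa): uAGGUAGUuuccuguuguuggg
mmu-miR-196a-5p (Hoxb and Hoxc): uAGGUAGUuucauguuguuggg
mmu-miR-10a-5p (Hoxb): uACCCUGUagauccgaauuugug
mmu-miR-10b-5p (Hoxd): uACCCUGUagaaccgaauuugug

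The hairpin row Mir196b, which lies wholly within exons of Hoxa9 on the same strand, had 5.43, 0.54 and 2.15 TPM in Evi1 HSC libraries, 4.01, 1.84 and 0 TPM under the WT HSC label and 7.42, 0 and 0 TPM under the WT KL label. Mir10a, upstream of Hoxb4, had 1.13, 2.02 and 0.243 TPM in Evi1 HSC libraries, 0, 0.473 and 0 TPM under the WT HSC label and 1.29, 0 and 0 TPM under the WT KL label. Such rows count longer RNA over the hairpin and do not measure mature microRNA, and Mir196b reads cannot be told apart from those of Hoxa9. Mir10b and Mir196a-2 were at 0 in all 9 libraries. Neither Mir196b nor Mir10a was called in any of the 3 comparisons, with limma adjusted p of 0.95 and 0.69 between Evi1 HSC and WT HSC.

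The step at the ends of Hoxa was set beside the neighbouring genes. Skap2, an adaptor gene on the anterior side, had 27.8 to 40.9 TPM in Evi1 HSC libraries, 30.2 and 31.7 TPM in WT HSC replicates 1 and 2 and 11.1 and 7.02 TPM in WT KL replicates 2 and 3, a difference of 1.87 (SE 0.23) in Evi1 HSC minus WT KL. Snx10, a sorting nexin gene farther out on that side, differed by 4.34 (SE 0.35) in Evi1 HSC minus WT KL. It had 21.9 to 49.4 TPM in Evi1 HSC libraries and 0.559 and 1.03 TPM in WT KL replicates 2 and 3. Hoxa3 differed by 4.66 on this log2(TPM + 1) scale, but was lower than Snx10 in those WT KL libraries, at 0.00399 and 0.0579 TPM. Of 16 neighbours of the 4 clusters 11 were tested with 7 libraries: 4 were higher and 2 lower in Evi1 HSC than in WT KL (31.3% and 14.3% of all tested genes were), and 5 were higher and 1 lower in WT HSC than in WT KL (26.7% and 10.8%). None of the 11 was called between Evi1 HSC and WT HSC by limma, with 1 at an unadjusted p under 0.05. On the Hoxb side, Ttll6, Calcoco2 and Skap1, which flank the cluster, were at 0.0739 TPM or less in every library, although Hoxb members were expressed between them.

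A list of 9 genes reported as targets of Hoxa9 and Meis1 was counted last. With 7 libraries, 8 of the 9 were higher in each HSC group than in WT KL (Cd34, Pim1, Foxp1, Lmo2, Erg, Flt3, Camk2d and Sox4), beside 31.3% of all tested genes in Evi1 HSC and 26.7% in WT HSC, and Myb was not called. Flt3, a cytokine receptor gene, differed by 3.0 (SE 0.29) and Erg, a stem cell transcription factor gene, by 4.75 (SE 0.27) in Evi1 HSC minus WT KL. Flt3, at 0.693 and 0.698 TPM in WT KL replicates 2 and 3, passed the filter through the libraries in which it was high. The list of 9 was chosen with earlier results of these data known. Whether Hoxa9 or Meis1 acted on these genes was not tested. None of the 9 was called between Evi1 HSC and WT HSC by limma, and 0 had an unadjusted p under 0.05.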

How the data were processed

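RNA-seq was measured in 9 libraries, each a deposited table of TPM values per gene. Per the submitters' processing notes the authors used HISAT2, StringTie and build mm10; no version, annotation or strand setting is stated there. The listed genes took 56.9% to 63.8% of each library's TPM total, and read depth is unknown. Gene positions came from GENCODE vM21 (GRCm38), in which 55141 of the 55488 identifiers were found, and sequences from RefSeq (GRCm38.p6). Libraries were grouped by title. Genes that reached 1 TPM in 3 or more of the 9 libraries were tested on log2(TPM + 1), a pseudocount of 1 TPM, in limma 3.58.1 (R 4.3.3) with a mean trend and Benjamini-Hochberg adjustment. All 3 groups entered each fit, with 9 libraries and with 7. The script was tested on simulated data. Hox members are reported, with values per library for those that averaged 1 TPM in a group or passed the filter. Hoxb7, which reached 1 TPM in 1 library, is given per library as well. Members and gene lists were chosen with earlier results of these data known. Values of 1 Hox member and 1 partner gene are not reported here. Alternatives were other pseudocounts, filters, scalings, priors, only the compared groups, a replicate block and leaving out each library.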

Additional observations from a re-analysis of the deposited data

How the results depend on the processing

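The count of called Hox members kept within 1.5 times its value under all alternatives except the filter of 5 TPM in 3 libraries. With 7 libraries that filter tests 8 members and calls 8 in Evi1 HSC against WT KL and 8 in WT HSC against WT KL. Without a filter 28 members were tested, so the share called fell. There 16 were called in Evi1 HSC against WT KL, adding Hoxb7 and Hoxc6, and 13 in WT HSC against WT KL, adding Hoxc4. Leaving out each of the 7 libraries gave 0 in Evi1 HSC against WT HSC, 12 to 14 in Evi1 HSC against WT KL and 10 to 14 in WT HSC against WT KL. Whether the replicate numbers pair libraries is not known. Deviations of same-numbered libraries correlated at -0.06 to -0.01 with 7 libraries and at -0.64 to 0.70 with 9. With 7, each WT group holds 2 libraries, whose deviations mirror each other. With 9, different-numbered libraries of the WT groups also reached -0.85 and 0.73, so these values cannot settle it. With the replicate block, 0, 14 and 11 members were called in these 3 comparisons, Hoxb5 (adjusted p = 0.061) and Hoxb6 (0.070) being lost in WT HSC against WT KL, and 0 in each with 9 libraries. Hoxb9 in WT HSC against WT KL was called with pseudocounts of 0.1 TPM (0.0088) and 0.5 TPM (0.036), with listed genes rescaled (0.040) and with only the compared groups (0.024), and Hoxb5 was lost without a filter on low values (0.083). Over all tested genes, the 40 calls in Evi1 HSC against WT HSC became 0 with the block, 6 with only the compared groups, 73 without a filter and 5 to 27 when 1 library was left out, with 5 without WT HSC replicate 1. The 8863 calls in Evi1 HSC against WT KL fell to 5641 without WT KL replicate 3, and the 7307 in WT HSC against WT KL to 4291. With 9 libraries, the 2 calls in Evi1 HSC against WT KL became 96 without the library labelled WT KL replicate 1.

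Signs turned only when a library was left out and only for members that were not called. With 7 libraries, Evi1 HSC minus WT HSC ranged from -0.09 to 0.19 for Hoxa5, -0.04 to 0.44 for Hoxa6, -0.30 to 0.21 for Hoxa7, -0.13 to 0.06 for Hoxa9, -0.21 to 0.16 for Hoxb3 and 0.00 to 0.71 for Hoxb5. With 9 libraries it ranged from -0.53 to 0.66 for Hoxa2, -0.12 to 1.69 for Hoxa7, -0.06 to 2.70 for Hoxa9 and -0.06 to 0.78 for Hoxb3, and WT HSC minus WT KL ranged from -0.04 to 0.86 for Hoxb2. The cause was not tested. TPM values carry no read counts, so what depth limits is unknown.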
